A study of Xenopus tropicalis with 2 samples.

Results

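In the early gastrula (stage 10.5) of wild-type Xenopus tropicalis, 274 nuclei held high RNA levels of dscaml1 and tp73 together and little RNA of the superficial cell layer. They were chosen by counts of unique molecular identifiers (UMIs, distinct transcripts): at least 10 dscaml1 UMIs, at least 2 tp73 UMIs and at most 4 UMIs summed over the outer-layer genes rabgap1l, grhl1 and krt7, in barcodes with at least 1500 genes and at most 8000 UMIs. They made up 274 of the 7440 nuclei within these limits, and 5.23% of the 5237 nuclei under the outer-gene limit (exact 95% binomial interval 4.64 to 5.87%). The 4963 other nuclei under the outer-gene limit, called other deep nuclei below by that limit alone, were the comparison. Single-nucleus RNA (snRNA-seq) was measured in 1 group, wild-type whole embryos, of which 200 were homogenised together, and the 2 samples are sublibraries of that 1 pool of nuclei. Each sublibrary holds different nuclei, so a SD over the 2 sublibraries covers technical spread only, no test was possible and no p-value is given. Whole embryos were used, so the labels name no tissue or cell type for single nuclei.

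dscaml1 encodes a cell adhesion molecule of the immunoglobulin superfamily that is best known from neurons. tp73 encodes p73, a transcription factor of the p53 family, whose members bind closely similar DNA sites and control genes of cell cycle arrest, DNA repair and cell death. In mammals p73 is also needed in multiciliated cells and in part of the developing nervous system, while the third member of the family, p63, is a regulator of the basal epidermis. In the early gastrula the germ layers become distinct, and the ectoderm of Xenopus has a superficial outer layer and a deep inner layer that differ in their genes.

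The members came from both sublibraries and from all 12 wells of the first barcoding round. Sublibrary 1 held 136 of them, 5.17% of its deep nuclei, and sublibrary 2 held 138, 5.30%. Each well held between 18 and 30 members, which was between 3.74 and 7.92% of the deep nuclei of that well. No barcode occurred in both sublibraries among the members, whereas 164 barcodes did so among all nuclei kept. The members had a median of 4758 UMIs (3034 to 7984) and 1808 genes, against 4350 UMIs (2709 to 7994) and 1769 genes in the other deep nuclei. Their median doublet score was 0.0386, against 0.0357 in the other deep nuclei. The upper quartiles lay further apart, at 0.0769 against 0.0537, while the highest scores were 0.212 and 0.294. A limit of 0.15 on this score left 253 of the 274 members. Across the whole file the sublibraries held 44341256 and 44026454 UMIs.

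The values that chose the members are given as a description. dscaml1 had 7838 and 8579 CPM (UMIs of a gene scaled to 1e+06 UMIs of the summed nuclei) in the members of sublibraries 1 and 2, against 147 and 145 CPM in the other deep nuclei. In single members it ranged from 10 to 131 UMIs with a median of 36.5. tp73 had 2240 and 1835 CPM in the members, against 13.3 and 15.4 CPM in the other deep nuclei, and ranged from 2 to 37 UMIs with a median of 8. Both genes lie on chromosome 7 of the assembly UCB_Xtro_10.0, dscaml1 (gene identifier XBXT10g008112) at chr7:81714790-81856335 and tp73 (XBXT10g016691) at chr7:101305422-101398238. Beside the limits, 17 members had 10 to 14 dscaml1 UMIs and 14 other deep nuclei had 5 to 9 dscaml1 UMIs with at least 2 tp73 UMIs. At the tp73 limit stood 22 members with 2 tp73 UMIs and 17 other deep nuclei with 1 tp73 UMI and at least 10 dscaml1 UMIs.

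Both other genes given as markers of these nuclei were high in them. The rule did not use them, but they were picked as markers on these data, so their values too are a description. hepacam encodes a cell adhesion protein of the immunoglobulin superfamily known from glial cells. It had 809 and 804 CPM in the members, against 5.76 and 7.35 CPM in the other deep nuclei, a ratio of 123 (95% counting interval 104 to 147). smc1b encodes the meiotic form of a cohesin subunit. It had 240 and 353 CPM in the members, against 4.81 and 3.68 CPM in the other deep nuclei, a ratio of 69.8 (55.8 to 87.9). hepacam lies at chr7:74865463-74902484 and smc1b at chr3:3134375-3180173.

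The label of a deep-layer population was set against 2 lists of layer genes that the rule did not use. The outer-layer list of 12 genes, which includes grhl3, krt70 and epas1, summed to 763 CPM in the members, against 1106 CPM in the other deep nuclei, 13089 CPM in outer nuclei with dscaml1 and tp73, and 17396 CPM in the other outer nuclei. The inner-layer list of 5 genes summed to 6019 CPM in the members, against 6736 CPM in the other deep nuclei and 1889 CPM in the other outer nuclei. Most of that sum was col18a1, a basement membrane collagen, with 4836 and 4177 CPM in the members, against 4827 and 4751 CPM in the other deep nuclei. zeb2, a repressor of epithelial genes, and pdgfa, a growth factor of the inner ectoderm, also stayed within 2-fold of the other deep nuclei. The inner-layer gene tp63 did not: it had 35.1 and 27.7 CPM in the members, against 145 and 138 CPM in the other deep nuclei, a log2 ratio of -2.15 ± 0.18 (SD, n = 2 sublibraries). The endocytic receptor gene lrp2 had 99.4 and 134 CPM in the members, against 326 and 328.5 CPM in the other deep nuclei. The members therefore held far less RNA of the outer-layer list than outer nuclei did. None of the 10 compared genes of that list passed 2-fold against the other deep nuclei in either direction. Of the 5 inner-layer genes 2, tp63 and lrp2, were at least 2-fold lower and none was higher, beside 5.91% and 6.26% of all genes compared. The members kept col18a1, zeb2 and pdgfa within 2-fold. The other deep nuclei were mixed in these lists. A group of 135 of them, called endoderm-like below, had 5589 CPM of the outer-layer list and 1123 CPM of the inner-layer list. A cluster of 63 of them was led by angpt4.2 and by f3 and atp1b2 of the outer-layer list.

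The wider program was described over the 9820 genes with at least 50 UMIs in the members and the other deep nuclei together. Some genes therefore passed this minimum mainly through their UMIs in the members. A gene was counted when the ratio log2[(CPM + 1)/(CPM + 1)] reached 4-fold in the summed counts and in each sublibrary. Beside the rule genes, 289 genes were at least 4-fold higher in the members and 66 were at least 4-fold lower. Counting the rule genes, this was 2.96% of the genes compared for higher and 0.672% for lower. The higher genes together took 10.5% of the UMIs of the members, against 0.932% of those of the other deep nuclei, and dscaml1 alone took 0.821%, against 0.0146%. The median log2 ratio over all genes compared was -0.25. List medians below are set beside this value. In single nuclei thinned to 3000 UMIs, the members had UMIs of 36 to 131 of these 289 genes with a median of 95, against 4 to 125 with a median of 14 in the other deep nuclei. The genes were themselves picked for this difference, so the numbers only show how far the program was shared between members: every member held more of the genes than the median of the other deep nuclei.

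**Figure D1:**
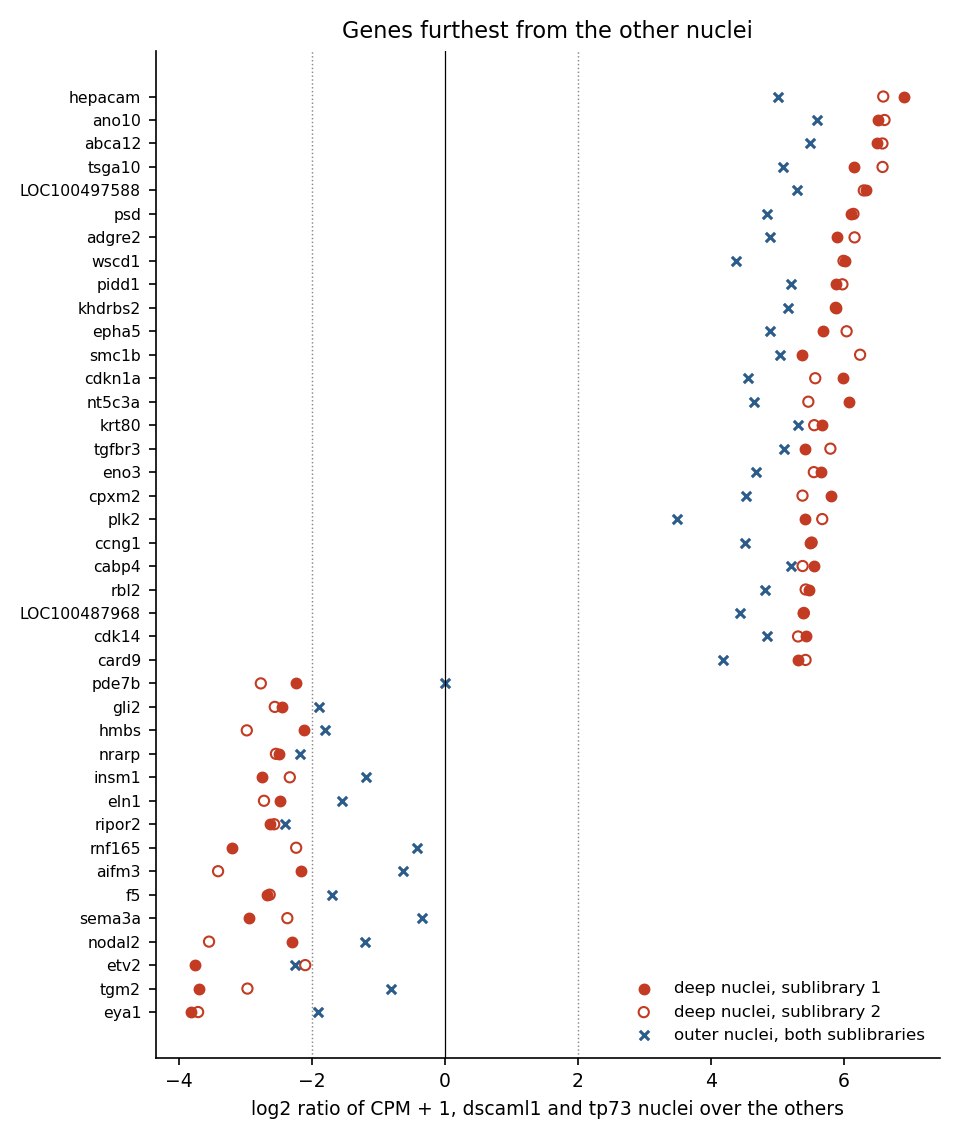
Log2 ratio of CPM + 1 (x axis) of the 25 named genes highest and the 15 named genes lowest in deep nuclei with dscaml1 and tp73, 1 row per gene. Filled and open circles give deep nuclei of sublibraries 1 and 2, crosses give outer nuclei with dscaml1 and tp73 over other outer nuclei, and dotted lines mark 4-fold. The 25 higher genes lie above 4-fold for deep and outer nuclei alike. Each of the 15 lower genes lies nearer to 0 in outer nuclei than in the summed deep nuclei, though etv2 does not against sublibrary 2 alone. etv2, ripor2 and nrarp lie beyond 4-fold in outer nuclei too, at -2.25, -2.40 and -2.18.

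The 25 genes furthest above the other deep nuclei had products of many kinds. Behind hepacam came ano10, a membrane protein of the anoctamin family, with 2337 and 2175 CPM in the members, against 24.7 and 21.3 CPM in the other deep nuclei (ratio 98.1, 89.5 to 108). abca12, a lipid transporter of the skin barrier, had 946 and 873 CPM in the members, against 9.45 and 8.14 CPM in the other deep nuclei. tsga10, named for its expression in testis, had 648 and 673 CPM in the members, against 8.16 and 6.04 CPM in the other deep nuclei. In all of these the sublibraries of the members lay close together. Their distance from the comparison in each sublibrary was a condition of the choice. The 25 also included the ephrin receptor gene epha5 (ratio 61.5), the RNA-binding protein gene khdrbs2 (61.2), the Arf guanine exchange factor gene psd (75.5), the adhesion receptor gene adgre2 (73.9), the TGF-beta co-receptor gene tgfbr3 (54.0) and the pocket protein gene rbl2 (48.3), whose product holds back cell cycle genes. The keratin gene krt80 and the adaptor gene card9 were low in both classes but stood far apart. krt80 had 93.6 and 78.8 CPM in the members, against 0.859 and 0.700 CPM in the other deep nuclei, and card9 had 55.6 and 56.9 CPM in the members, against 0.430 and 0.350 CPM in the other deep nuclei. Keratins form a gene family whose members can share reads, so the krt80 value is less certain.

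The program was shared between members to a different degree for each gene. After thinning to 3000 UMIs, which left out none of the members and 26 of the other deep nuclei, ano10 had a UMI in 92.0% of the members, against 3.50% of the other deep nuclei. cpxm2, a carboxypeptidase-like gene, had one in 94.9% of the members, against 4.66%. hepacam was found in 73.7% of the members (exact 95% interval 68.1 to 78.8%), against 1.44%, and smc1b in 35.4% (29.7 to 41.4%), against 0.790%. Without thinning hepacam was found in 81.4% of the members, against 1.79%, and smc1b in 41.2%, against 1.03%. The shares of the other deep nuclei can be read against the RNA outside nuclei, whose part in them was not tested. In barcodes of at most 100 UMIs, too few for a nucleus, ano10 had 176 CPM and hepacam 39.9 CPM, close to their mean over all nuclei kept (186 and 45.4 CPM) and above the 22.98 and 6.55 CPM of the other deep nuclei.

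Among the gene lists examined, that of the p53 family and its targets had the most genes at least 2-fold higher. The lists differ in size and were chosen with earlier results of these data known, so this rank is a description. Of the 33 compared genes of this list, whose targets are known from mammals, 15 were at least 2-fold higher in the members and 1 was at least 2-fold lower, while 6.26% and 5.91% of all genes compared were so. 12 of the 33 reached 4-fold higher. The list median was a log2 ratio of 0.75, against -0.25 over all genes compared. tp73 and tp63 were not in this list, and tp63 was at least 4-fold lower in the members (ratio 0.222).

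Genes of feedback within the pathway were among them. mdm2, which encodes a ubiquitin ligase and is a target of the family, had 2113 and 1744 CPM in the members, against 116 and 108 CPM in the other deep nuclei (ratio 17.2, 16.3 to 18.2). ccng1, which encodes cyclin G1, had 333 and 349 CPM in the members, against 6.45 and 6.65 CPM in the other deep nuclei.

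Among the list genes at least 2-fold higher were some known for roles in cell cycle arrest and growth control. cdkn1a encodes p21, an inhibitor of cyclin-dependent kinases. It had 183 and 150 CPM in the members, against 1.89 and 2.19 CPM in the other deep nuclei (ratio 81.7, 59.5 to 114), and lies at chr2:54652721-54677604. It was found in 39.1% of the thinned members (33.2 to 45.1%), against 0.587% of the other deep nuclei. The stress kinase gene plk2 had 503 and 537 CPM in the members, against 10.8 and 9.54 CPM in the other deep nuclei. The sestrin genes sesn1, sesn2 and sesn3, whose products restrain growth signalling under stress, had log2 ratios of 4.12 ± 0.06, 1.42 ± 0.01 and 5.32 ± 0.25 (SD, n = 2 sublibraries).

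Others of the list are known for roles in cell death. pidd1, a death domain protein, had 623 and 569 CPM in the members, against 9.625 and 8.05 CPM in the other deep nuclei. The receptor genes eda2r and tnfrsf10b, both of the tumour necrosis factor receptor family, had ratios of 41.3 (35.1 to 48.7) and 47.1 (37.3 to 59.9). Of 12 compared genes in a separate apoptosis list, 3 were at least 2-fold higher and none was lower, beside 6.26% and 5.91% of all genes compared. casp10, an initiator caspase, had 83.4 and 80.3 CPM in the members, against 1.89 and 2.01 CPM in the other deep nuclei. bcl2l11, which encodes the death-promoting protein Bim, had 196 and 198 CPM in the members, against 18.65 and 15.5 CPM in the other deep nuclei. The third was bak1, with 6.57 CPM in the members, against 2.08 CPM. The list median was 0.03, against -0.25 over all genes.

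The rest of the p53 list did not move together. The translesion polymerase gene polk had 117 and 118 CPM in the members, against 2.58 and 4.03 CPM in the other deep nuclei. notch1 and epha2, which hold most of the UMIs of the list in the other deep nuclei, had ratios of 1.22 and 1.00. dram1, an autophagy gene, was the member of the list at least 2-fold lower, with 2 UMIs in the members and 126 in the other deep nuclei (1.46 against 5.46 CPM). As a share of all UMIs of a nucleus, the 46 list genes in the matrix took a median of 0.986% in the members (0.270 to 2.08%), against 0.415% in the other deep nuclei (0 to 1.66%). Of the other deep nuclei, 50, or 1.01%, lay above the member median.

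**Figure D2:**
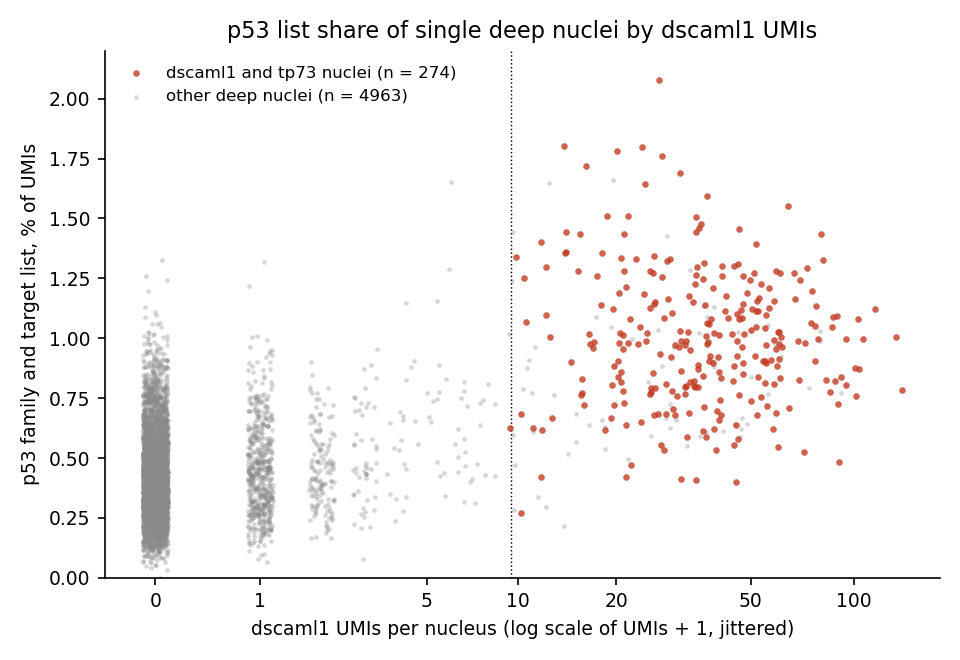
Share of all UMIs of a nucleus that came from the p53 family and target list (y axis, %) against its dscaml1 UMIs (x axis, log scale of UMIs + 1, jittered), 1 point per deep nucleus. Members, the red points to the right of the dotted line, have a median of 0.986%, and the grey other deep nuclei have a median of 0.415%, and the grey points right of the line, with at least 10 dscaml1 UMIs but 1 or 0 tp73 UMIs, have medians of 0.771 and 0.780%.

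The program was not confined to nuclei that met both limits. mdm2 had 1928 CPM in the summed members, 1152 CPM in the 17 deep nuclei with at least 10 dscaml1 UMIs and 1 tp73 UMI, 1314 CPM in the 46 with at least 10 dscaml1 UMIs and no tp73, 539 CPM in the 32 with 5 to 9 dscaml1 UMIs and fewer than 2 tp73 UMIs, 99.6 CPM in the 763 with 1 to 4 dscaml1 UMIs and 87.5 CPM in the 3949 with neither gene. cdkn1a had 167 CPM in the members and 1.05 CPM in nuclei with neither gene. In nuclei with at least 10 dscaml1 UMIs it had 63.3 CPM (5 UMIs) with tp73 at 1 and 30.3 CPM (7 UMIs) with tp73 at 0. At the limits themselves the size of the step differed between genes, though on small classes. Members with 10 to 14 dscaml1 UMIs had 1669 CPM of mdm2, against 1062 CPM in the 14 nuclei with 5 to 9 dscaml1 and at least 2 tp73 UMIs, and 295 CPM of smc1b, against 13.4 CPM. Members with 2 tp73 UMIs had 1096 CPM of mdm2, against 1152 CPM at 1 tp73 UMI, and 387 CPM of pidd1, against 101 CPM. In the classes of 14 and 17 nuclei mdm2 had 79 and 91 UMIs, so the far lower smc1b and pidd1 values rest on very few UMIs. Leaving nuclei with 5 or more dscaml1 UMIs or any tp73 UMI out of the comparison, an alternative chosen after these values were seen, gave 297 higher and 70 lower genes.

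**Figure D3:**
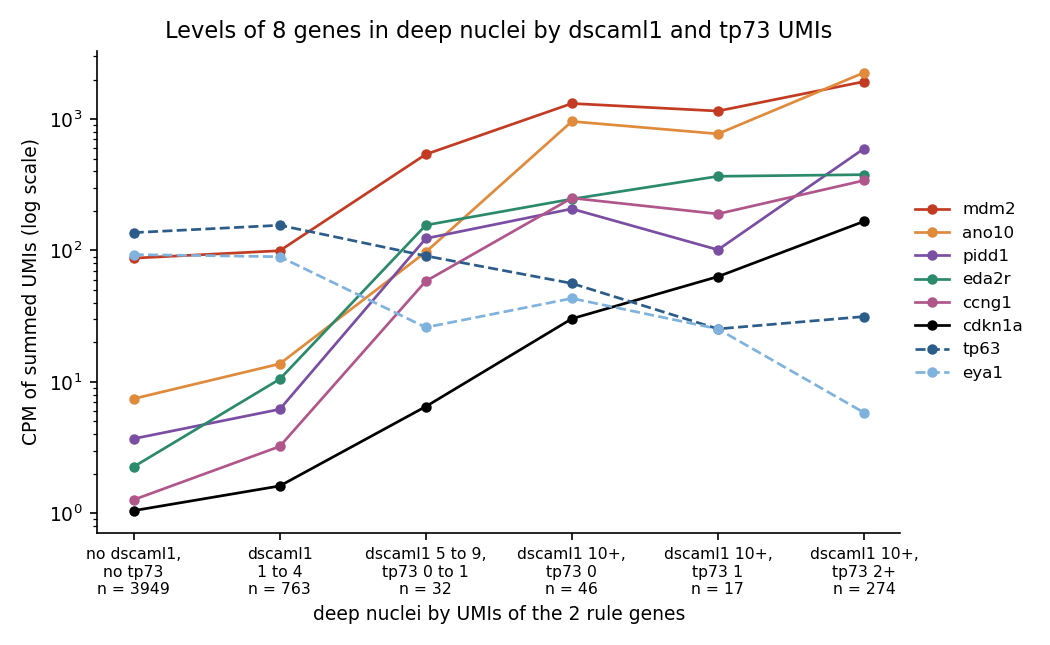
Level of 8 genes (y axis, CPM of summed UMIs, log scale) in 6 classes of deep nuclei ordered by their dscaml1 and tp73 UMIs (x axis), with the number of nuclei under each class. The 14 nuclei with 5 to 9 dscaml1 UMIs and at least 2 tp73 UMIs and nuclei with tp73 but no dscaml1 are not drawn. mdm2 stands at 87.5 CPM in the lowest class and 1928 CPM in the members, while tp63 and eya1, drawn dashed, stand lower in the members.

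Lists of other stress, repair and division genes were read in the same way, beside the 6.26% higher and 5.91% lower of all genes compared. Of 37 compared genes of DNA damage and repair, 3 were at least 2-fold higher and 2 lower, with a median of -0.19. Among the higher ones were the ligase gene lig4 (9.50 CPM in the members, against 1.65 CPM) and the ubiquitin ligase gene rnf168 (69.4 CPM in the members, against 31.3 CPM). The lower ones, rad52 with 1 UMI in the members and xrcc4 with none, rest on counts too small to place them. Of 11 stress response genes, 1 was higher, herpud1, which acts in the clearance of misfolded proteins, with 196 and 209 CPM in the members, against 20.02 and 18.03 CPM in the other deep nuclei. The heat shock gene hspa8 had a ratio of 0.756.

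Genes of the dividing cell stayed near the other deep nuclei. Of 50 compared cell cycle genes 3 were at least 2-fold higher, namely cdk6 (ratio 5.54), pcna (41.6 CPM in the members, against 13.7 CPM) and rbl2, and 1 was lower, the phosphatase gene cdc25b (473 CPM in the members, against 1098 CPM). The median of the list was -0.30, close to -0.25 over all genes. mki67, a marker of dividing cells, had 2274 and 2118 CPM in the members, against 2385 and 2424 CPM in the other deep nuclei, and had a UMI in 99.6% of the thinned members, against 99.7%. So a high cdkn1a level stood beside RNA of division genes near that of the other nuclei.

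The families of the markers themselves were then examined, with dscaml1, hepacam and smc1b left out of the lists. Of all genes compared 6.26% were at least 2-fold higher and 5.91% lower. Of 16 compared genes of meiosis and the germ line 1 was higher, tex15, with 24.9 and 5.84 CPM in the members, against 2.15 and 2.101 CPM, and 3 were lower, ddx4, tdrd7 and piwil2, with a list median of -0.83. The 11 compared cohesin genes, which form the ring that holds sister chromatids together, had no gene past 2-fold and a median of -0.25, equal to that of all genes. nipbl, the cohesin loader, had 2739 and 2706 CPM in the members, against 2803 and 2829 CPM in the other deep nuclei. Of 29 compared adhesion genes of the immunoglobulin superfamily 1 was higher, nectin1 (1072 and 966 CPM in the members, against 397 and 432 CPM), and 2 were lower, the guidance receptor gene robo3 (193 and 149 CPM, against 653 and 663 CPM) and ncam1 (6.57 CPM, against 35.1 CPM). The list did not hold every such gene: robo4 (ratio 8.42) and mpzl2 (5.43) were outside it and at least 4-fold higher.

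Fates in which p73 acts in mammals were set beside the members too, with 6.26% of all genes compared at least 2-fold higher and 5.91% lower. Of 11 compared genes of multiciliated cells and ionocytes 3 were higher and 3 lower, with a median of -0.18. The higher ones are regulators of the multiciliated fate. foxj1 had 29.2 and 32.1 CPM in the members, against 6.10 and 7.27 CPM in the other deep nuclei, myb had 55.6 and 37.9 CPM, against 9.625 and 10.2 CPM, and gmnc had 12.4 CPM, against 3.82 CPM. ccno, which acts in the same fate, was lower with 2 UMIs in the members (1.46 CPM, against 6.98 CPM), as were rfx3 and the ionocyte gene ca12. foxj1 had a UMI in 6.57% of the thinned members (3.94 to 10.2%), so its RNA was seen in a small share of them. Of 14 compared genes of neuronal differentiation 2 were higher and 3 lower. ebf2 had 40.9 and 36.5 CPM in the members, against 2.06 and 1.66 CPM in the other deep nuclei (ratio 20.8, 13.6 to 31.8), and nrxn3 had 38.7 CPM, against 12.9 CPM. elavl3 and myt1, which are expressed in early neurons, and insm1 were lower.

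At 4-fold fewer genes were lower than higher, while at 2-fold 580 were lower and 615 higher. The 4-fold counts are not alike. A gene could pass the UMI minimum through the members alone, and the pseudocount keeps genes of few UMIs from reaching 4-fold lower. With no UMI minimum 388 genes were higher and 66 lower, and with at least 200 UMIs 182 and 35. Many of the 4-fold lower genes had small counts in the members. eya1, a regulator of sensory placodes and ears, had 8 UMIs in the members, 5.85 and 5.84 CPM, against 95.1 and 88.5 CPM in the other deep nuclei (ratio 0.0636, 0.0274 to 0.126). It had a UMI in 0.730% of the thinned members, against 17.8%. gli2, a transcription factor of hedgehog signalling, had 20.5 and 19.0 CPM in the members, against 116 and 117 CPM in the other deep nuclei. The guidance cue gene sema3a had 7 UMIs in the members, 4.39 and 5.84 CPM, against 40.6 and 34.3 CPM. tgm2, a transglutaminase, had no UMI in the members, which with a floor of 3 UMIs over all members puts it at least 4.29-fold lower than the 217 UMIs of the other deep nuclei. nodal2 and etv2 had 1 UMI each in the members, ratios of 0.0671 (0.00169 to 0.377) and 0.0661 (0.00167 to 0.371). The 15 lowest genes also held eln1, f5, aifm3, rnf165, ripor2, insm1, nrarp, hmbs and pde7b. The count of lower genes moved with the choices made: it was 20 with no UMI maximum, 11 with a pseudocount of 5 CPM, 42 with median-of-ratios scaling and 160 with nuclei thinned to 3000 UMIs, against 66.

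The germ layer markers of the members were those of several germ layers. Counts in these lists are read beside the 6.26% higher and 5.91% lower of all genes compared at 2-fold. Of 12 compared genes of the neural ectoderm none was at least 2-fold higher and 2 were lower, sox2 and pax3, with a list median of -0.64. sox2, a factor of neural competence, had 35.8 CPM in the members, against 98.1 CPM in the other deep nuclei, while sox3, of the same family, had 177 and 139 CPM, against 181 and 176 CPM. sox3 had a UMI in 31.4% of the thinned members, against 36.1%. None of 6 compared genes of the non-neural ectoderm passed 2-fold in either direction. bmp7.1, a signal of ventral and epidermal fate, had 835 and 828 CPM in the members, against 769 and 801 CPM, and tfap2a, a factor of epidermis and neural crest, had 411 and 223 CPM, against 425 and 404 CPM.

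The lists of ventral and general mesoderm and of non-neural ectoderm changed order between sublibraries, with medians of -0.20 and 0.03 in sublibrary 1 and of -0.06 and -0.80 in sublibrary 2. Of 24 compared genes of ventral and general mesoderm 2 were at least 2-fold higher and 3 lower, beside 6.26% and 5.91% of all genes compared. Their median was -0.06, above the -0.25 of all genes. tbxt, the brachyury gene that marks early mesoderm, had 566 and 804 CPM in the members, against 651 and 631 CPM in the other deep nuclei, and a UMI in 48.2% of the thinned members (42.1 to 54.3%), against 46.1%. vegt had 472 and 649 CPM, against 440 and 437 CPM. The signal genes wnt11b and fgf4 were the higher ones, wnt11b with 133 and 123 CPM in the members, against 41.2 and 38.7 CPM, and fgf4 with 46.8 and 46.7 CPM, against 17.2 and 18.8 CPM. The muscle regulator gene myf5 (5.11 CPM in the members, against 17.9 CPM), mespa and bmper were lower. Of 10 compared genes of dorsal mesoderm none was higher and plod2 was lower, with a median of -0.91. chrd.1, the dorsal BMP antagonist chordin, had 347 and 536 CPM in the members, against 841.5 and 896 CPM in the other deep nuclei.

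Endoderm genes were divided. Of 19 compared genes none was at least 2-fold higher in both sublibraries and 4 were lower, beside 6.26% and 5.91% of all genes compared. The lower ones were slc5a8.1, slc12a3l, nodal1 and nodal2, and the list median was -0.67. The medians of the sublibraries were -1.41 and -0.32, so the level of this list was the least certain. frzb, a secreted Wnt antagonist, had 254 and 477 CPM in the members, against 293 and 311 CPM, and the mesendoderm factor mix1 had 110 and 203 CPM, against 81.5 and 84.9 CPM. gata6, a factor of endoderm and heart, had 171 and 235 CPM in the members, against 324 and 325 CPM.

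**Figure D4:**
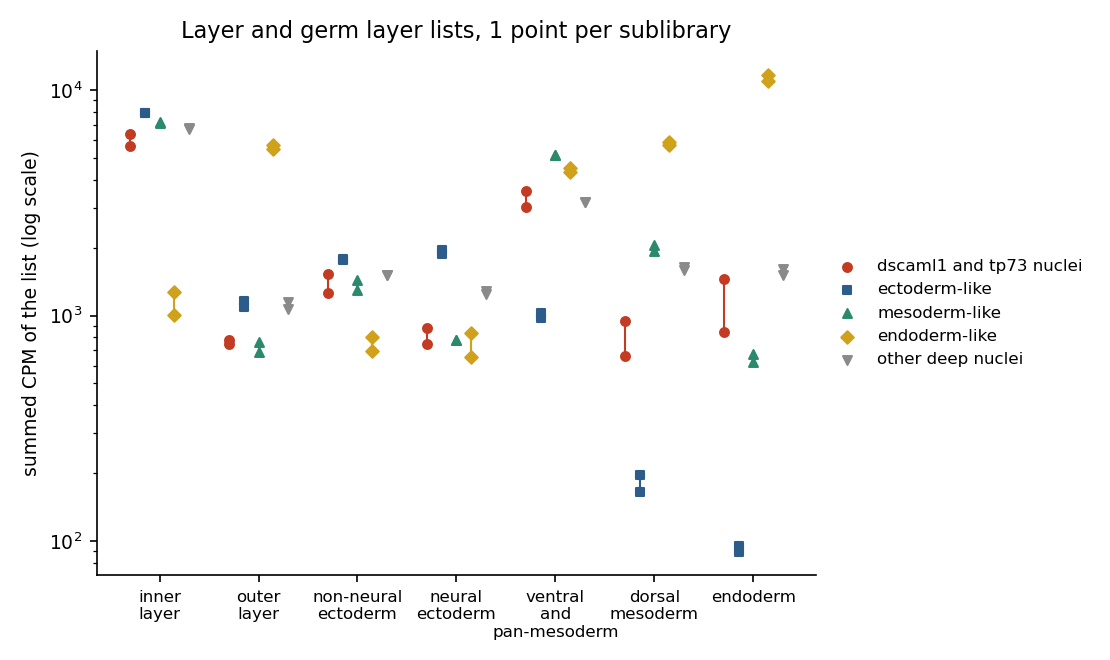
Summed level of each layer or germ layer list (y axis, CPM, log scale) in the members, in ectoderm-like, mesoderm-like and endoderm-like clusters of other deep nuclei and in all other deep nuclei, with 1 point per sublibrary joined by a line. For ventral and pan-mesoderm the members, at 3297 CPM, lie between the ectoderm-like nuclei at 1002 CPM and the mesoderm-like nuclei at 5159 CPM. All other deep nuclei, at 3190 CPM, lie between them too.

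To see which germ layers the levels corresponded to, the other deep nuclei were clustered without the list genes and clusters were named from their germ layer markers. 3 clusters with 1459 nuclei were ectoderm-like, 5 with 1858 nuclei were mesoderm-like and 1 with 135 nuclei was endoderm-like. The other 5 stayed unnamed, among them a cluster of 81 nuclei with 4710 CPM of dscaml1. That cluster had 2 ectoderm, 7 mesoderm and 11 endoderm markers raised, and tsga10, epha5 and ccng1 led its genes. Its nuclei were among the other deep nuclei, so the comparison held nuclei with the program and raised endoderm markers. Their part in the endoderm shares below was not tested. The endoderm-like cluster also held 5036 CPM of chrd.1, against 773 CPM in mesoderm-like nuclei, so it does not stand for all endoderm. Unnamed clusters of 327 and 302 nuclei each had 11 endoderm markers raised too, beside 11 and 9 mesoderm markers. A cluster whose leading genes went against its markers was left unnamed. The endoderm results below therefore rest on the profile of 135 nuclei. The members stood between the named classes for every germ layer list that separates them, and so did the other deep nuclei as a whole. The latter had 3190 CPM of ventral and pan-mesoderm, 1564 CPM of endoderm and 1261 CPM of neural ectoderm genes. These are sums over many nuclei, so they do not place single nuclei between classes. Ventral and pan-mesoderm genes summed to 3297 CPM in the members, against 1002 CPM in the ectoderm-like and 5159 CPM in the mesoderm-like clusters. Endoderm genes summed to 1152 CPM in the members, against 92.6 CPM in ectoderm-like, 647 CPM in mesoderm-like and 11378 CPM in endoderm-like nuclei. Neural ectoderm genes summed to 817 CPM in the members, against 1915 CPM in the ectoderm-like and 780 CPM in the mesoderm-like clusters.

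Single members carried markers of different germ layers. Each nucleus was given the class whose profile of germ layer genes, taken from the other sublibrary, made its counts most likely. By this measure 112 of the 274 members, or 40.9% (34.999 to 46.95%), were nearest to ectoderm-like nuclei, 132, or 48.2% (42.1 to 54.3%), to mesoderm-like nuclei and 30, or 10.9% (7.51 to 15.3%), to endoderm-like nuclei. Of all other deep nuclei, 48.1% were nearest to ectoderm-like, 40.0% to mesoderm-like and 11.9% to endoderm-like nuclei. The members thus spread over the 3 classes, with a smaller ectoderm share and a larger mesoderm share than the other deep nuclei. That difference lay mostly in sublibrary 2, where 34.8% were nearest to ectoderm and 52.2% to mesoderm, while in sublibrary 1 the shares were 47.1% (38.4 to 55.8%) and 44.1% (35.6 to 52.9%). The measure returned 92.4% of ectoderm-like, 80.6% of mesoderm-like and 80.7% of endoderm-like nuclei to their own class. A member had a median of 26 UMIs of these genes, so single assignments are uncertain.

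The program was also read within each germ layer, set against other deep nuclei nearest to the same class. In members nearest to ectoderm mdm2 had 2328 CPM, against 99.4 CPM, and cdkn1a had 169 CPM, against 1.85 CPM. In members nearest to mesoderm mdm2 had 1821 CPM, against 110 CPM, and cdkn1a had 194 CPM, against 2.15 CPM. In the 30 members nearest to endoderm mdm2, cdkn1a and tp73 were lower. mdm2 had 1025 CPM, against 166 CPM, cdkn1a had 44.0 CPM, against 2.39 CPM, and tp73 had 868 CPM, against 7.85 CPM. dscaml1 stood at 9494 CPM, against 445 CPM. Other deep nuclei nearest to ectoderm and mesoderm had 59.4 and 153 CPM of dscaml1 and 12.7 and 18.4 CPM of tp73. The comparison nuclei of endoderm thus held more dscaml1 and less tp73 than those of the other classes. Of the 289 higher genes, 281, 279 and 189 were at least 4-fold higher within ectoderm, mesoderm and endoderm. The 4-fold limit in each sublibrary was not asked for here, and since the 289 genes were chosen in these same members, most of them nearest to ectoderm or mesoderm, these counts are a description. The count within endoderm also rests on fewer members and on comparison nuclei with more dscaml1. The p53 list took 0.723% of UMIs in members nearest to endoderm, against 0.987 and 1.04% in those nearest to ectoderm and mesoderm. hepacam had 447 CPM in them, against 789 and 906 CPM. Whether the program was weaker in members nearest to endoderm was not tested.

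Outer nuclei with dscaml1 and tp73 were compared with outer nuclei, so that the 2 comparisons shared no nucleus. 120 nuclei above the outer-gene limit met the dscaml1 and tp73 limits, against 2083 other outer nuclei. Of 7921 genes compared there 2.64% were at least 4-fold higher and 1.54% lower, and 5.82% and 6.67% passed 2-fold. 174 genes were higher in both comparisons, which is 60.2% of the 289 genes of the deep members and 84.1% of the 207 genes of the outer nuclei. Of the lower genes 2 were in common. That is 3.03% of the 66 genes of the deep members, beside 1.54% of all genes compared that were lower in outer nuclei. It is 1.64% of the 122 genes of the outer nuclei, beside 0.672% of all genes compared that were lower in deep nuclei. Not every gene was compared in both layers: 233 of the 289 and 39 of the 66 were compared in outer nuclei, and 204 of the 207 and 110 of the 122 in deep nuclei. The 2 lower genes in common were nkain1 and slc30a3, both named after their values were seen. nkain1 had 6 UMIs in the deep members and none in outer nuclei with dscaml1 and tp73, and slc30a3 had none and 1 UMI. mdm2 had 3434 CPM in outer nuclei with dscaml1 and tp73, against 268 CPM in other outer nuclei, cdkn1a had 120 CPM, against 4.16 CPM, and hepacam had 367 CPM, against 10.4 CPM. foxj1 was among the higher genes of the deep members that were not higher in this comparison. It had 26.6 CPM in outer nuclei with dscaml1 and tp73, against 26.1 CPM in other outer nuclei. It was not alone: mreg and golim4, for example, had log2 ratios of 0.07 and 0.19 in outer nuclei. The outer-layer list summed to 13089 CPM in outer nuclei with dscaml1 and tp73, against 17396 CPM in other outer nuclei, so as a sum it stayed high. Not all of its genes were kept: 4 of the 12 were at least 2-fold lower and none was higher. The list median was -0.85, against -0.25 over all genes compared there.

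The rule did not use the share of RNA from whole chromosomes, which was examined next. For each nucleus the share of UMIs from each of 10 chromosomes was divided by that of the other deep nuclei, over 7819 genes within 2-fold between the classes and under 1000 CPM, so that the program itself was left out. Each chromosome was cut into 2 parts of about equal RNA. A nucleus was counted as high for a chromosome when both parts were above 1.25 times their share in the other deep nuclei, and as low when both were below 0.75 times. These limits were chosen after the values were seen. By them 62 members, or 22.6% (17.8 to 28.05%), had a high or low chromosome, against 402 of the other deep nuclei, or 8.0999% (7.36 to 8.89%). The shares were 18.4 and 26.8% in the members of sublibraries 1 and 2, against 8.70 and 7.496% in the other deep nuclei, so the classes were apart in both.

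Most of these members had the same few chromosomes. Chromosome 2 was high in 17 members, or 6.20% (3.66 to 9.75%), against 1.61% of the other deep nuclei, with ratios of 1.29 to 1.65 and a median of 1.53. Chromosome 9 was low in 18 members, or 6.57% (3.94 to 10.2%), against 0.645%, with ratios of 0.339 to 0.678 and a median of 0.445. Chromosome 10 was high in 16 members, or 5.84% (3.37 to 9.31%), against 0.645%, with ratios of 1.27 to 2.02. These sets held 50 members in all, with 1 member in more than 1 set. Beyond these sets no chromosome was high or low in more than 5 members, the number low for chromosome 3 (1.82%). The 17, 18 and 16 members came from 8, 10 and 8 wells and from both sublibraries. By germ layer measure, the members high for chromosome 2 were nearest to ectoderm in 4 cases, mesoderm in 10 and endoderm in 3, and those low for chromosome 9 were nearest to ectoderm in 10 and mesoderm in 8. The same chromosomes stood out beyond the members. Outer nuclei were read over their own set of 6076 genes, so their shares here and below are not measured on the same genes as those of deep nuclei. In the 120 outer nuclei with dscaml1 and tp73, chromosome 2 was high in 5.00%, 9 low in 3.33% and 10 high in 5.00%. In other outer nuclei these shares were 1.39, 0.480 and 0.672%. In the 109 other deep nuclei with at least 5 dscaml1 UMIs they were 3.67, 4.59 and 3.67%.

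**Figure D5:**
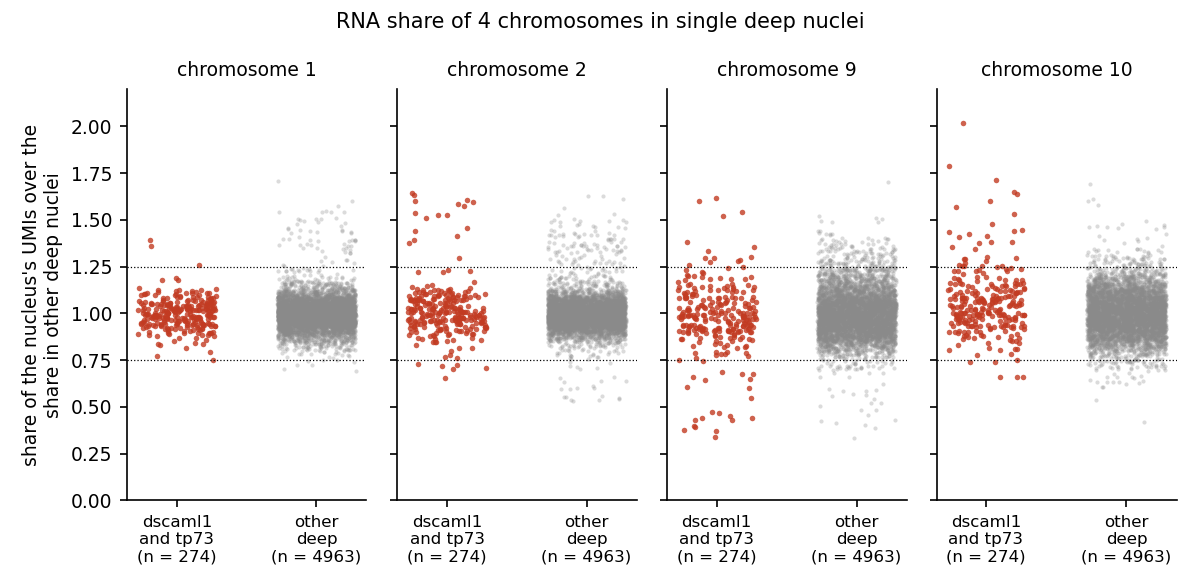
Share of the UMIs of a nucleus that came from chromosomes 1, 2, 9 and 10, divided by the share in other deep nuclei (y axis), 1 point per nucleus, members left and other deep nuclei right, with dotted lines at 0.75 and 1.25. The 17 members high for chromosome 2 have a median of 1.53 and the 18 low for chromosome 9 a median of 0.445, while most members lie near 1.

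The p53 targets were then read in members with and without such a chromosome. The p53 list took 1.02% of the UMIs in members with a high or low chromosome, against 0.975% in the other members, and mdm2 had 1965 CPM, against 1918 CPM. cdkn1a had 202 CPM, against 156 CPM, with 218 against 175 CPM in sublibrary 1 and 192 against 135 CPM in sublibrary 2. Over all other deep nuclei, those with a high or low chromosome had 198 CPM of mdm2, against 104 CPM without. There cdkn1a had 5.36 CPM, against 1.75 CPM. Among other deep nuclei with no dscaml1 and no tp73 UMI, those with a high or low chromosome had 87.3 CPM of mdm2, against 87.5 CPM without, and made up 7.77% of their class. Their cdkn1a level was 0.710 CPM, against 1.08 CPM. In the 109 other deep nuclei with at least 5 dscaml1 UMIs the share with a high or low chromosome was 22.9% (15.4 to 32.0%), beside 22.6% of the members, and there mdm2 had 1923 CPM in those with a high or low chromosome, against 793 CPM in those without. By sublibrary these were 1257 CPM, against 841 CPM, in sublibrary 1 and 2585 CPM, against 733 CPM, in sublibrary 2. Whether the chromosome shares and the program are linked was not tested. Among outer nuclei with dscaml1 and tp73 the share with a high or low chromosome was 15.8% (9.81 to 23.6%), against 7.73% (6.62 to 8.96%) of other outer nuclei. Depth was similar, with a median of 2597 UMIs used per member, against 2770 per other deep nucleus, and nuclei thinned to 3000 UMIs gave 21.5% of the members, against 9.11%.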

How the data were processed

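Nuclei of 200 wild-type Xenopus tropicalis embryos at stage 10.5 were barcoded by combinatorial indexing and sequenced as 2 sublibraries. The deposited counts are UMIs per gene and barcode, which the authors made with Parse Batch Analysis on the assembly UCB_Xtro_10.0 and left unfiltered. The sources used here do not give the handling of reads shared between genes. The submitters' processing notes name Scanpy 1.9.6 and Seurat. The matrix holds 215209 barcodes and 21821 genes, of which 4245 and 4229 barcodes had at least 1500 genes, fewer than the study states at this minimum. UMIs were summed per class and sublibrary and scaled to CPM, a pseudocount of 1 CPM was added, and genes with at least 50 UMIs were compared. Intervals are exact 95% Poisson or binomial intervals and cover counting error only. With 1 pool no test was run. Clusters came from Leiden (resolution 1.0, leidenalg 0.10.2, igraph 0.11.9) without the list genes, and scanpy 1.11.5 was among the tools used. Doublets were not removed, and a limit of 0.15 on the doublet score was an alternative. The steps were tested on simulated data. Gene positions were matched by symbol to RefSeq.

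The members and gene lists were chosen with earlier results of these data known. The text names the 25 highest genes with at least 30 UMIs in the members, the 15 lowest with at least 200 UMIs in the other deep nuclei, the rule genes and markers, and from each list the 4 genes with most UMIs in the members and any past 4-fold. Other list genes are named where 5 or fewer passed 2-fold, or as an example, and were chosen after their values were seen. Alternatives changed the limits of the rule, depth, scaling, pseudocount, filter, clustering and sublibraries. Values of 2 list genes are not reported here, though they count in their lists.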

Additional observations from a re-analysis of the deposited data

Results flagged for a closer look

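Barcodes outside the gene and UMI limits entered only the alternatives with other limits, and their values were higher in those with dscaml1 and tp73. In 188 barcodes with fewer than 1500 genes that otherwise met the rule, the p53 list took 1.06% of UMIs, against 0.492% in 8734 other barcodes with at least 500 but fewer than 1500 genes under the outer-gene limit, and mdm2 had 2228 CPM, against 185 CPM. In 41 nuclei above 8000 UMIs that otherwise met the rule, the list took 0.781% of UMIs, against 0.457% in 348 others, and mdm2 had 1273 CPM, against 113 CPM.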

How the results depend on the processing

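List medians close to 0 changed sign. That of apoptosis (0.03) was -0.12 with no UMI minimum, that of stress response (-0.06) 0.20 and that of non-neural ectoderm (-0.26) 0.03 in sublibrary 1 alone, that of ventral and general mesoderm (-0.06) 0.13 with median-of-ratios scaling and that of multiciliated cells and ionocytes (-0.18) 0.04 after thinning. The member share of deep nuclei was 4.13% and 6.73% with gene minimums of 1000 and 2000, 5.60% with no UMI maximum, 5.50% and 4.49% with dscaml1 minimums of 5 and 20, 5.56% and 3.91% with tp73 minimums of 1 and 5, 4.92% and 5.42% with outer-gene maximums of 2 and 8, and 4.97% without nuclei of doublet score above 0.15. The 289 higher genes became 183 at a gene minimum of 2000 and 182 with at least 200 UMIs. The 66 lower genes became 20 with no UMI maximum, 153 with a tp73 minimum of 5, 160 after thinning, 42 with median-of-ratios scaling, 35 with at least 200 UMIs and 11 with a pseudocount of 5 CPM. The median log2 ratio of all germ layer genes was -0.51, and -0.71, -0.27 and -0.76 with gene minimums of 1000 and 2000 and a tp73 minimum of 5. With no UMI maximum 25 of the 40 highest and lowest named genes stayed past 4-fold. With chromosome limits of 1.2 and 0.8 the share with a high or low chromosome was 29.2% of the members, against 12.5% of the other deep nuclei, with limits of 1.4 and 0.6 it was 12.04%, against 2.74%, and after thinning that of the other deep nuclei was 9.11%. The cause of these shifts was not tested.

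With 1 sublibrary left out, the higher genes numbered 272 to 278, the lower genes 236 to 258, since 1 sublibrary then had to pass instead of both, the germ layer median was -0.66 to -0.39, and the chromosome share was 18.4 to 26.8% in the members and 7.496 to 8.70% in the other deep nuclei. The mesoderm share of the members was 43.9 to 52.4% where it could be computed; gene minimums of 1000 and 2000 and an outer-gene maximum of 8 left a germ layer with no named cluster. The chromosome alternatives and the narrower comparison nuclei were chosen after seeing the data. No paired analysis was possible because the sublibraries form 1 group.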

Other observations

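The 289 higher genes lay on all 10 chromosomes, from 1.90% of the genes compared on chromosome 10 to 4.51% on chromosome 7, which holds dscaml1, tp73 and hepacam. Their median span in the annotation was 49321 bases, against 32608 bases for the 66 lower genes and 24871 bases for all genes compared. Within the members, the share of UMIs from dscaml1 and that from the p53 list had correlations near 0 as a description over 274 nuclei of 1 pool (Pearson r -0.006, Spearman rho 0.04). The members were chosen by their dscaml1 UMIs, so this covers only nuclei above that limit and not the other deep nuclei. Of summed UMIs the list took 0.456% in deep nuclei with 1 to 4 dscaml1 UMIs. It took 0.790% in those with at least 10 and no tp73, and 0.984% in the members.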
